A study of Mus musculus with 4 samples.

Results

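The genes examined were 38 genes of glycolysis and of the response to low oxygen, in hematopoietic stem cells from mouse bone marrow. They were the 38 symbols of a list, all present among the 24016 gene symbols of the count tables, and each was read from its transcript with the highest total count. RNA was sequenced from cells sorted as lineage-negative, Sca-1 and c-Kit positive, CD34 and Flt3 negative and CD150 positive, from C57BL/6 mice at 4 months of age. One group of 2 libraries came from wild-type (WT) mice and the other group of 2 from NHD13+ mice, here NHD13, whose transgene encodes a fusion of human NUP98 and HOXD13 expressed in blood cells from Vav1 regulatory sequences, a model of myelodysplastic syndrome. The labels give no treatment, no sex and no transgene copy number, and leave unsaid whether different animals gave the libraries of each genotype. The p-values therefore describe the spread among these 4 libraries alone, which may be technical.

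Glycolysis splits glucose into pyruvate in the cytosol, and lactate dehydrogenase can turn that pyruvate into lactate. Pyruvate dehydrogenase kinases switch off the enzyme complex that feeds pyruvate into mitochondria. Hif1a and Epas1 (HIF-2 alpha) pair with Arnt to form transcription factors. Prolyl hydroxylases mark the alpha subunits, Hif1a and Epas1, for destruction when oxygen is present. Targets of these factors include glucose carriers, glycolytic enzymes and Pdk1. Long-term stem cells of the marrow are known for reliance on glycolysis and for a hypoxia-type gene program.

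Counts over 1 transcript per gene came to 42664018 and 37070939 in WT and to 35025974 and 48423689 in NHD13. Levels are given as CPM, the usual depth-scaled count, with edgeR's TMM scaling factors. Of the gate genes, Kit was at 991 to 1271 CPM over the 4 libraries and Slamf1, which encodes CD150, at 117 to 143 CPM, while others were less even. Ly6a, which encodes Sca-1, was at 273 and 200 CPM in WT and at 131 and 77.7 in NHD13. Transcripts of Cd34, whose protein the sort selected against, were at 120 and 138 CPM in WT and at 51.6 and 21.4 in NHD13, and Flt3, also selected against, was at 59.0 CPM in NHD13 library 1 and at 4.33 to 15.4 in the others. The stem cell gene Hlf was called lower by edgeR, at 284 and 320 CPM in WT and at 113 and 71.0 in NHD13 (adjusted p 0.0373). Transcripts of some other blood cells also moved with genotype: 7 granulocyte markers (all detected in all 4 libraries) summed to 364 and 290 CPM in WT and to 3523 and 1032 CPM in NHD13 libraries 1 and 2. The NHD13 library 2 sum rested mainly on Mpo at 587 CPM, with Ngp at 132 and Elane at 116, all above both WT libraries. In that library S100a8 (80.1 CPM), S100a9 (39.5) and Camp (26.7) lay close to WT library 1 (78.7, 37.0 and 26.5). Ltf, at 49.7 CPM there, lay between the WT libraries (53.4 and 41.5). Lymphoid markers summed to 28.0 and 23.4 CPM in WT and to 170 and 169 in NHD13. All 6 had a log2 fold change above 0, but not every marker rose in both NHD13 libraries. Cd3e was at 0.713 and 0.493 CPM in WT, 0.728 in NHD13 library 1 and 36.3 in NHD13 library 2. Macrophage markers summed to 14.3 and 15.5 in WT and to 59.6 and 39.7 in NHD13. Of these 5 markers, 3 had a log2 fold change above 0 and 2 below. Mast cell and basophil markers summed to 9.33 and 7.12 in WT and to 134 and 143 in NHD13. The last sum rested on single genes, Ms4a2 at 111 CPM in NHD13 library 1 and Cpa3 at 107 in NHD13 library 2, and its member Fcer1a was lower, at 0.920 and 1.70 CPM in WT and at 0 and 0.0204 in NHD13. Sums of erythroid markers (205 and 201 CPM in WT, 183 and 278 in NHD13) and of megakaryocyte markers (224 and 183 in WT, 284 and 211 in NHD13) overlapped. The part of these markers in the results was not tested. In bulk RNA, fewer cells of a type and less RNA per cell cannot be told apart.

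The glucose carrier genes and the minor isoform genes Aldoc and Eno2 had lower levels in both NHD13 libraries. Levels of Pkm, Tpi1, Gapdh and Pgk1 overlapped between genotypes. Of the 17 glycolytic enzyme genes, 9 were lower without overlap, Ldha, Aldoa and Eno1 among them, against 30.3 percent of all genes tested. For 1 enzyme gene both NHD13 libraries lay above both WT libraries, against 30.1 percent, and for 7 the groups overlapped. By edgeR's quasi-likelihood test with Benjamini-Hochberg adjustment over 14853 genes, 2 of 38 members passed an adjusted p of 0.05, both lower in NHD13: the glucose carrier gene Slc2a3 and the aldolase gene Aldoc. That is 5.26 percent of the members, against 4.28 percent of all genes tested (2.22 percent for calls of lower genes), a share near the background. At an unadjusted p under 0.05 there were 13 members, 34.2 percent against 26.8 percent of all genes; 12 of them were lower in NHD13, against 13.9 percent. In 21 members both NHD13 libraries lay below both WT libraries, against 30.3 percent of all genes tested, and in 4 members both lay above, against 30.1 percent; in the other 13 the groups overlapped. Of the 38 log2 fold changes 26 were below 0, against 49.9 percent of all genes tested. The median log2 fold change was -0.26 over the members and 0.00 over all genes tested.

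Calls differed between tools and libraries. DESeq2 called 10 members, against 17.5 percent of all genes; 9 were lower, against 9.33 percent, and 1 was higher, against 8.2 percent. Limma-voom called 2, against 4.17 percent, both lower, against 2.37 percent. The 10 were Slc2a3, Aldoc, Slc2a1, Epas1, Pdk1, Pdk4, Bnip3, Ldhb and Eno2, all lower, and Hk1, higher. With either WT library left out, edgeR called 0 members (10 without library 1, against 15.4 percent of all genes, and 12 without library 2, against 16.3 percent, had an unadjusted p under 0.05), in fits that called 0.0 percent of all genes. DESeq2 then called 3 members, against 6.87 percent of all genes, and 5 members, against 7.5 percent, and limma-voom called 0 members both times, against 0.0 percent. With NHD13 library 1 left out edgeR called 1 member (Slc2a3, against 1.69 percent of all genes), DESeq2 4 (against 9.43 percent) and limma-voom 1 (against 1.37 percent). With NHD13 library 2 left out edgeR called 1 (Slc2a3, against 6.35 percent), DESeq2 12 (against 16.0 percent) and limma-voom 1 (against 4.39 percent).

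**Figure D1:**
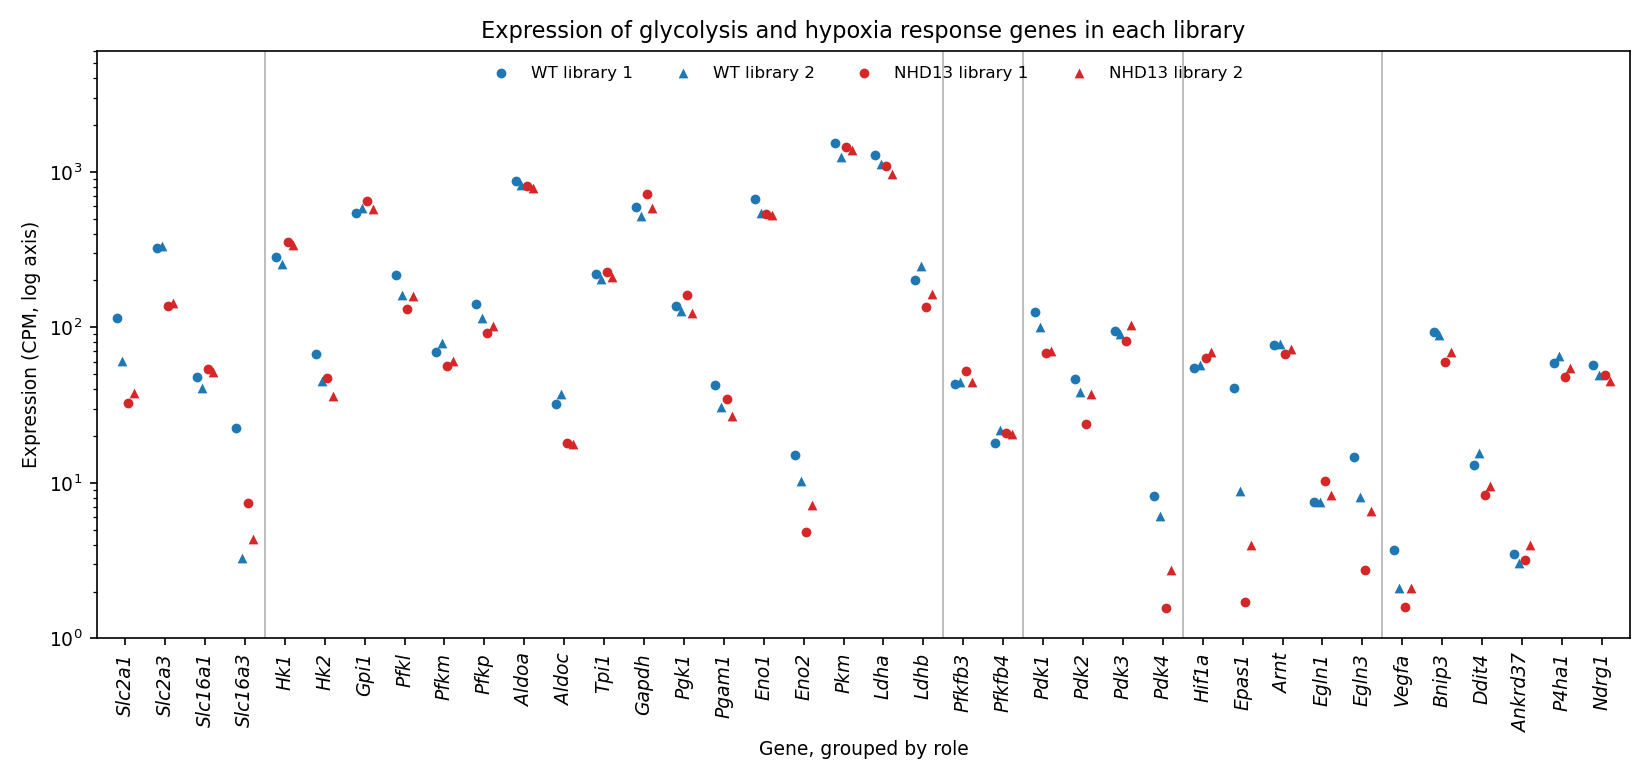
Expression in each library (CPM, log axis) of the 38 genes, grouped by role from carriers at the left to Hif1a targets at the right, with WT in blue, NHD13 in red, circles for library 1 and triangles for library 2. Slc2a3, Aldoc, Pdk1 and Bnip3 show both red points below both blue points, while Pkm, Tpi1, Gapdh and Pgk1 overlap.

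Promoters were read to show what these genes share in sequence with each other. HIF binds the core letters ACGTG or GCGTG, which were searched on both strands in the 250 bases before each RefSeq start (build GRCm38.p6), so that CACGT and CACGC count as matches on the other strand. RefSeq promoters were matched by symbol for 35 of the 38 members, all but Slc2a3, Epas1 and Ndrg1. Of the 35, 32 held at least 1 match in at least 1 promoter (91.4 percent), against 59.3 percent of 10877 tested genes with a promoter. The list holds known HIF targets, so this share is not independent of how members were chosen. For Pkm and Vegfa the matches lay only before starts 859 and 7206 bases from the GENCODE start of the counted transcript. The promoters nearest that start held none. The letters also occur inside CACGTG, the E-box bound by Myc and other factors, in which 1 site counts on both strands; it was present in 7 of the 35 members and in 9.62 percent of tested genes. Tpi1, Gpi1 and Eno2 held no match in this window. A match is a description of the letters and not evidence of binding, and binding was not measured here.

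The promoters below are from 4 genes that were lower in both NHD13 libraries (Slc2a1, Aldoc, Pdk1, Bnip3) and from 2 enzyme genes whose groups overlapped (Gapdh, Pgk1), printed 5′ to 3′ on the gene's strand with matches in capitals. They lie at chr4:119108495-119108744 (plus strand), chr11:78323948-78324197 (plus strand), chr2:71872974-71873223 (plus strand), chr7:138909507-138909756 (minus strand), chr6:125165774-125166023 (minus strand) and chrX:106186850-106187099 (plus strand), each ending at the base before the start. Where a gene had more than 1 start, the one nearest the GENCODE start of the counted transcript was taken.
Slc2a1: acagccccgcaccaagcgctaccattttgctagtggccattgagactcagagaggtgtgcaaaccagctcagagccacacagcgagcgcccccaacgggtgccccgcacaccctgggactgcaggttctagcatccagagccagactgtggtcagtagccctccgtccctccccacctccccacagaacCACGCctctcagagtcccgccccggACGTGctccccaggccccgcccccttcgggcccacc
Aldoc: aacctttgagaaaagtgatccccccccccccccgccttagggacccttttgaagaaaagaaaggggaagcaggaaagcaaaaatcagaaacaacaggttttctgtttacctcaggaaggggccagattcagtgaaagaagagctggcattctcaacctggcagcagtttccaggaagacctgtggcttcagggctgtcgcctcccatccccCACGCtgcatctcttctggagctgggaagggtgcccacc
Pdk1: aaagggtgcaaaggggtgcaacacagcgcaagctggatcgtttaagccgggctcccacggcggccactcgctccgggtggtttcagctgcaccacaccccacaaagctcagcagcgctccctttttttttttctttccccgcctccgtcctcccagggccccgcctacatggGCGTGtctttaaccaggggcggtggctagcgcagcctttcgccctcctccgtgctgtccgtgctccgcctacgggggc
Bnip3: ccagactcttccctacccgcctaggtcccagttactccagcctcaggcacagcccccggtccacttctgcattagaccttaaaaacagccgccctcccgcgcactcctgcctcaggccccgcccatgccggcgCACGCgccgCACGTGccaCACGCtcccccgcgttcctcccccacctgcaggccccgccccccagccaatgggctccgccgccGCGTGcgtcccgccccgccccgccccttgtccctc
Gapdh: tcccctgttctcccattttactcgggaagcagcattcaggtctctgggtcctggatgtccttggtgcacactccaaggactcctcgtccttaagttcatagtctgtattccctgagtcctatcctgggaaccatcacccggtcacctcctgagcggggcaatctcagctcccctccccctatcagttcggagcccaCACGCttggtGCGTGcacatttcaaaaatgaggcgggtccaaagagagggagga
Pgk1: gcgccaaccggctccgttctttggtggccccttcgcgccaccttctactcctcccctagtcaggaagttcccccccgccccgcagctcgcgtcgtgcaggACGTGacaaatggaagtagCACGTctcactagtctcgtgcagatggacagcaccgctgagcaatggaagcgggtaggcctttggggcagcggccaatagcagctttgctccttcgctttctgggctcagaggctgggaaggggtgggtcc
Only promoters that held a match were printed, so its presence in all 6 was set by that choice. There was 1 match each in Aldoc and Pdk1 and 2 each in Slc2a1, Gapdh and Pgk1. Bnip3 had 5, of which 2 belong to 1 CACGTG. Of the genes without a match, Eno2 was lower in both NHD13 libraries, and the groups overlapped for Tpi1 and Gpi1.

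Glucose enters cells through carriers. Slc2a3 encodes GLUT3, a carrier of high affinity, and was at 324 and 334 CPM in the WT libraries and at 137 and 144 CPM in the NHD13 libraries. The replicates lay close together and the groups were far apart, at 329 ± 7.05 CPM (SD, n = 2) in WT and 140.2 ± 5.05 in NHD13. Slc2a3 fell by 1.23 ± 0.09 (SE) on the log2 scale, 2.35-fold lower, with an edgeR adjusted p of 0.0105 (3.41e-30 to 0.132 over 13 alternatives). The 2 alternatives in which it was not called were those that left out a WT library (adjusted p 0.132 without WT library 1 and 0.122 without WT library 2), and there its log2 fold change was -1.26 and -1.21.

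Slc2a1 encodes GLUT1, the carrier of basal glucose uptake. It was at 115 and 60.9 CPM in WT and at 32.8 and 37.7 CPM in NHD13. Both NHD13 libraries were lower than both WT libraries, and WT library 1 was 1.88 times WT library 2. The log2 fold change of -1.32 ± 0.32 was not called by edgeR (adjusted p 0.0850, and 0.000328 to 0.364 over the alternatives), and it ranged from -1.70 to -0.79 when a library was left out. Among carriers of lactate and pyruvate, Slc16a1 (MCT1) was at 47.9 and 40.5 CPM in WT and at 54.0 and 51.8 CPM in NHD13, slightly higher in both NHD13 libraries. Slc16a3 (MCT4), which exports lactate from glycolytic cells, was at 22.6 CPM in WT library 1 and at 3.28 in WT library 2, with 7.45 and 4.37 in NHD13. That value rested on WT library 1: the log2 fold change was -1.14 ± 0.89 with it and 0.84 without it.

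The first steps of glycolysis are committed by hexokinase and phosphofructokinase. Hk1, the hexokinase of most tissues, was at 283 and 255 CPM in WT and at 355 and 337 CPM in NHD13. It was higher in both NHD13 libraries, at 129 percent of the WT mean, with a log2 fold change of 0.36 ± 0.10 that edgeR did not call (adjusted p 0.101, and 0.0160 to 0.375 over the alternatives). Hk2, the inducible hexokinase and a Hif1a target, was at 67.7 and 45.4 CPM in WT and at 47.3 and 36.0 in NHD13, with overlapping groups and a log2 fold change of -0.44 ± 0.24. Gpi1, which isomerises glucose phosphate, was at 544 and 583 CPM in WT and 650 and 573 in NHD13, and its groups overlapped.

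The phosphofructokinase genes Pfkl, Pfkm and Pfkp encode the liver, muscle and platelet subunits of 1 enzyme, and all were lower in both NHD13 libraries without being called. Pfkl was at 215 and 162 CPM in WT and at 132 and 159.7 in NHD13, so NHD13 library 2 lay just under WT library 2. The log2 fold changes were -0.37 ± 0.18 for Pfkl, -0.34 ± 0.12 for Pfkm and -0.39 ± 0.13 for Pfkp, with edgeR adjusted p of 0.257, 0.154 and 0.154. Pfkfb3 and Pfkfb4 make and remove fructose 2,6-bisphosphate, the activator of that enzyme. Their log2 fold changes were 0.13 ± 0.13 and 0.07 ± 0.16, with overlapping groups, and neither was called.

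Aldolase cleaves the 6-carbon sugar. Aldoc, the isoform gene known from brain, was at 32.1 and 37.0 CPM in WT and at 18.2 and 17.9 CPM in NHD13. Both NHD13 libraries were below both WT libraries. Aldoc fell by 0.94 ± 0.14 on the log2 scale, 1.92-fold lower, with an edgeR adjusted p of 0.0407 (2.21e-05 to 0.212 over the alternatives). This call did not hold when any library was left out (adjusted p 0.208 and 0.212 without WT library 1 and 2, 0.118 and 0.0712 without NHD13 library 1 and 2), with log2 fold changes of -1.04 to -0.83. Aldoa, the main aldolase gene of blood cells, was at 878 and 816 CPM in WT and at 811 and 787 in NHD13 (log2 fold change -0.08 ± 0.08).

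The later part of the pathway runs from triose phosphate to pyruvate. Gapdh was at 597 and 523 CPM in WT and at 718 and 588 in NHD13, and Pkm, the pyruvate kinase gene, at 1537 and 1248 CPM in WT and at 1443 and 1383 in NHD13. The groups overlapped for Tpi1 (log2 fold change 0.04 ± 0.10), Gapdh (0.22 ± 0.13), Pgk1 (0.11 ± 0.15), Pgam1 (-0.24 ± 0.22) and Pkm (0.02 ± 0.12), and none was called. The signs of Tpi1, Pgk1, Pgam1 and Pkm changed when single libraries were left out. Eno1, the common enolase, had -0.19 ± 0.12, while Eno2, the enolase of neurons, was at 15.0 and 10.3 CPM in WT and at 4.80 and 7.16 in NHD13. Eno2 was lower in both NHD13 libraries (log2 fold change -1.08 ± 0.32, edgeR adjusted p 0.119, and 0.0302 to 0.427 over the alternatives).

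Pkm transcripts for the M1 and M2 forms of the enzyme differ in 1 exon. The transcript of the M2 form (NM_011099) had 452 and 290 more counts than that of the M1 form (NM_001253883) in WT and 399 and 489 more in NHD13. The surplus was on the M2 side in all 4 libraries.

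Lactate dehydrogenase is built from the A and B subunits. Ldhb, the subunit of oxidative tissues, was at 202 and 249 CPM in WT and at 136 and 165 CPM in NHD13, without overlap. Its log2 fold change was -0.58 ± 0.15 (edgeR adjusted p 0.101, and 0.00610 to 0.339 over the alternatives). Ldha, the subunit that favours lactate and a Hif1a target, was at 1285 and 1120 CPM in WT and at 1096 and 966 in NHD13, with -0.22 ± 0.11. Summed over the 17 enzyme genes, expression was 6930 and 6150 CPM in WT and 6519 and 6069 CPM in NHD13, and these sums overlapped.

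**Figure D2:**
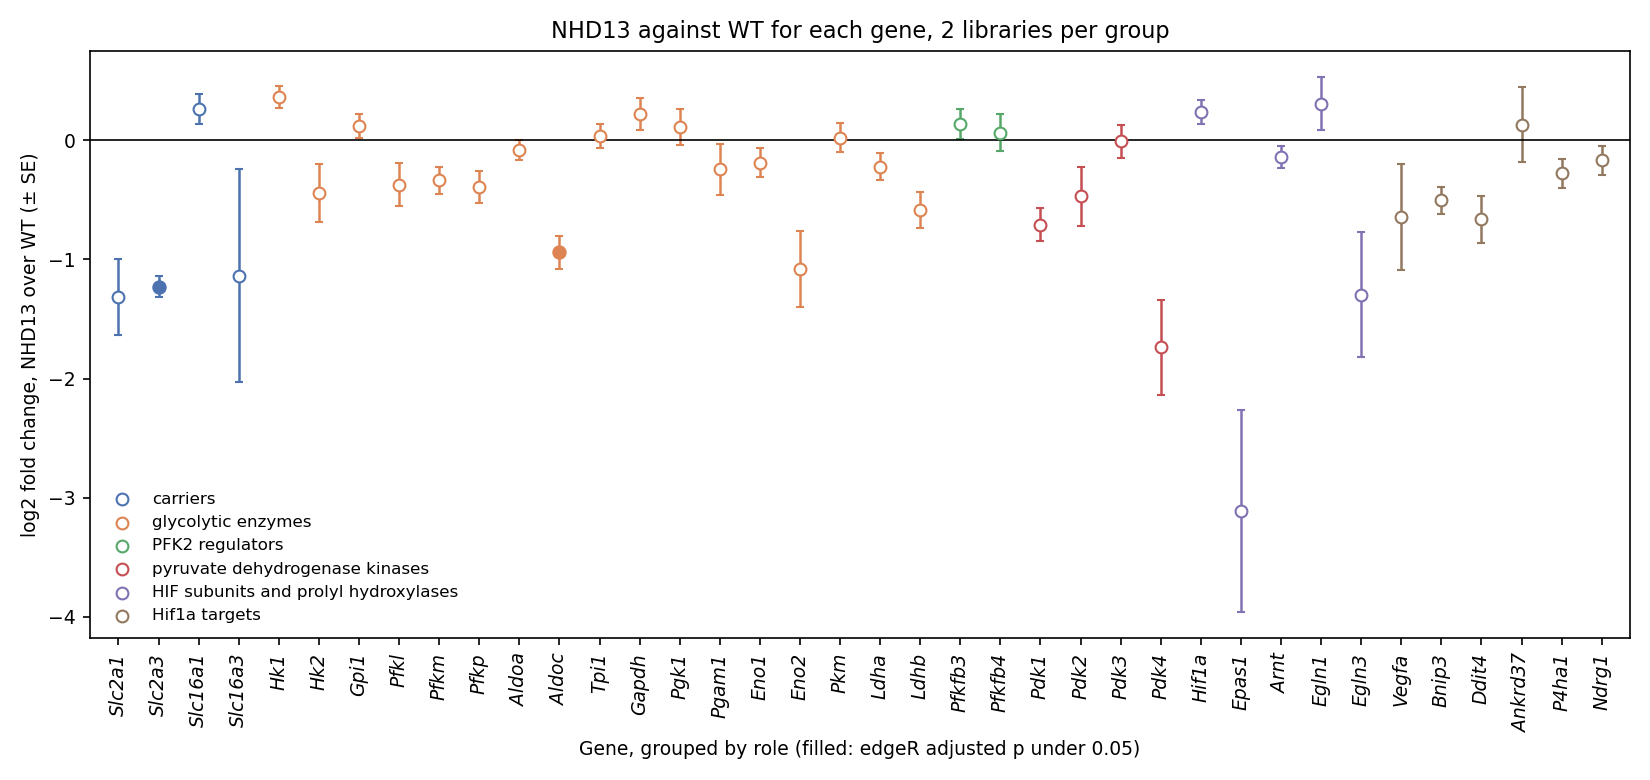
The log2 fold change of NHD13 over WT for each of the 38 genes, coloured by role, with bars of 1 SE and filled points for the 2 genes called by edgeR (Slc2a3 and Aldoc). Among the enzymes Eno2 and Aldoc lie lowest, and of all 38 genes Epas1 lies lowest, with an SE of 0.85.

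Levels were also compared between genes after division by transcript length (CPM per kb, with GENCODE M21 lengths for the counted transcripts). On that scale the highest WT means were Ldha (757), Pkm (573), Aldoa (547), Gapdh (395) and Eno1 (298), and the lowest were Vegfa (1.47), Pdk4 (2.07) and Egln1 (2.10). The order in NHD13 was led by Ldha (649), Pkm (581), Aldoa (516), Gapdh (460) and Eno1 (262), the same 5 genes. Pkm and Aldoa did not differ beyond their spread in WT, at 573 ± 84.0 and 547 ± 27.9 CPM per kb (SD, n = 2).

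The share of each gene among the listed genes of its step does not depend on how libraries are scaled. Genes outside the list were not counted, such as Hk3, at 36.4 and 30.1 CPM in WT and at 27.9 and 23.9 in NHD13. Eno3, also left out, was at 6.67 and 8.02 CPM in WT and at 5.27 and 6.47 in NHD13. Aldoc made up 3.22 and 3.97 percent of aldolase expression per kb in WT and 2.0 and 2.03 percent in NHD13. Eno2 made up 1.62 and 1.35 percent of Eno1 and Eno2 together in WT and 0.646 and 0.979 percent in NHD13. Hk2 made up 15.7 and 12.1 percent of Hk1 and Hk2 together in WT and 9.36 and 7.66 percent in NHD13. For these 3 pairs the minor gene held a smaller share in both NHD13 libraries than in either WT library. The shares of Slc2a1 among glucose carriers (30.1 and 18.1 percent in WT, 22.6 and 24.2 percent in NHD13), of the 3 phosphofructokinase genes and of Ldhb (16.1 and 21.3 percent in WT, 13.1 and 17.2 percent in NHD13) overlapped. An exact two-sided permutation test of 2 libraries against 2 cannot go below p = 0.333, so these shares were not tested.

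**Figure D3:**
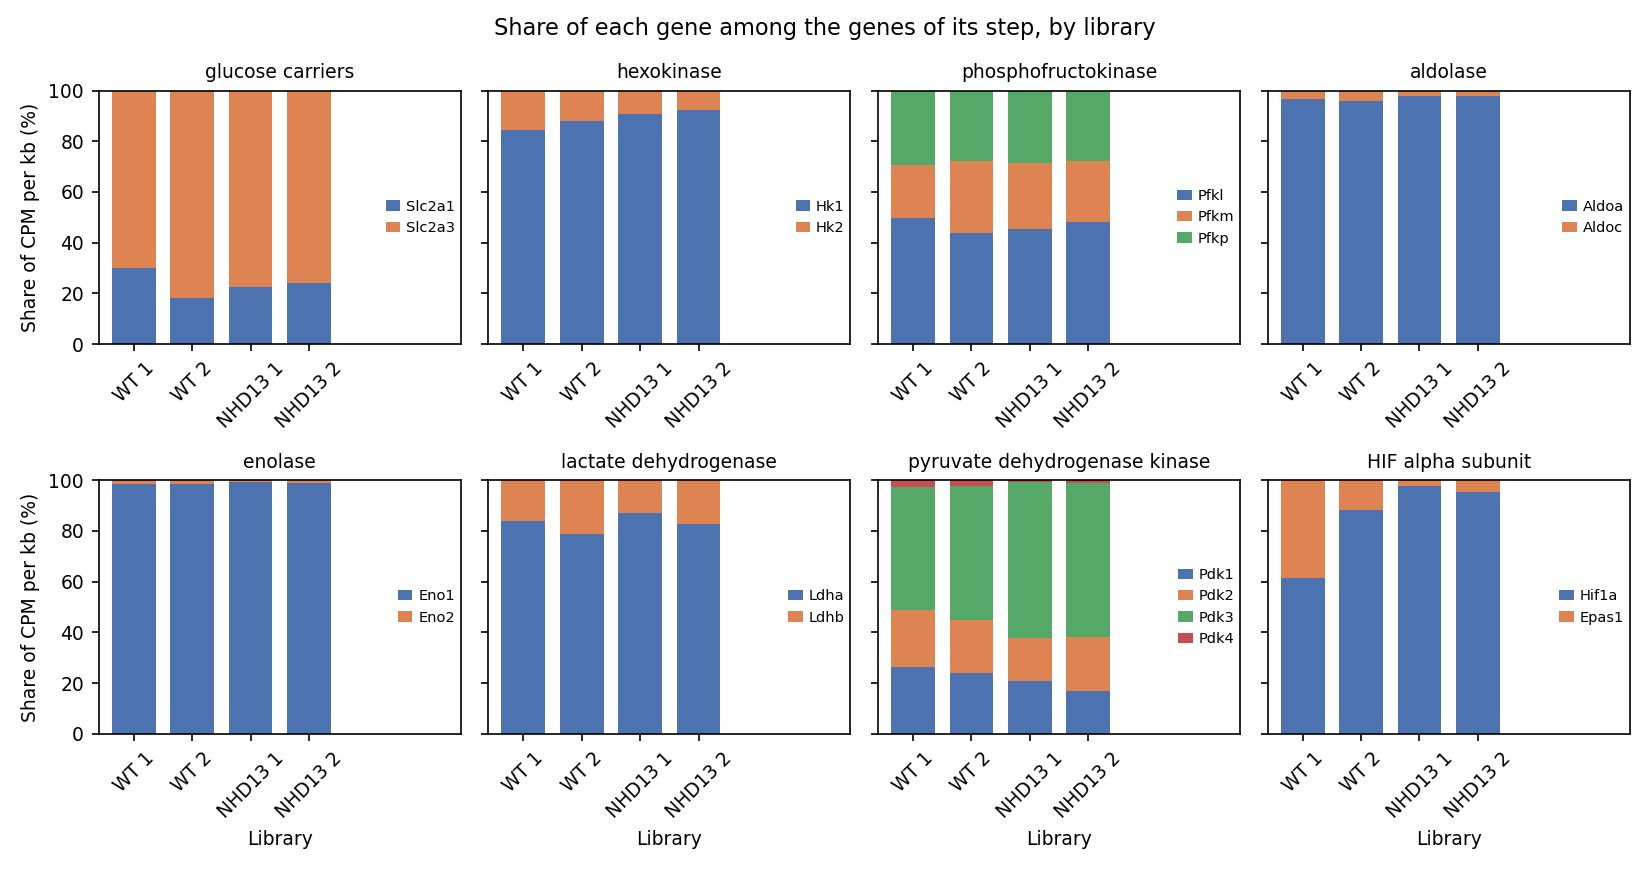
Share of CPM per kb (percent) of each gene among the listed genes of its step, one stacked bar per library. Hk2, Aldoc, Eno2, Pdk1, Pdk4 and Epas1 take smaller shares in both NHD13 libraries, and the bars of the glucose carriers, phosphofructokinase and lactate dehydrogenase overlap between genotypes.

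The 4 pyruvate dehydrogenase kinase genes differed among themselves. Pdk1, a Hif1a target, was at 126 and 100.1 CPM in WT and at 68.1 and 70.3 in NHD13. It was lower in both NHD13 libraries with a log2 fold change of -0.71 ± 0.14 and missed the threshold of edgeR (adjusted p 0.0625, and 0.000446 to 0.252 over the alternatives). It was called when low counts were not filtered (0.0245) and when at least 1 CPM was required in each library of either genotype (0.0465). Pdk4, known for induction in fasting, was at 8.28 and 6.16 CPM in WT and at 1.57 and 2.73 in NHD13, 3.35-fold lower, with a log2 fold change of -1.74 ± 0.40 (adjusted p 0.0777, and 0.00331 to 0.323 over the alternatives); it too was called without a filter (0.0466).

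Pdk2 was at 46.8 and 38.6 CPM in WT and at 24.0 and 37.5 in NHD13 (log2 fold change -0.47 ± 0.25), and NHD13 library 1 alone was far from WT. Pdk3 was at 95.3 and 90.8 CPM in WT and at 82.1 and 102.9 in NHD13 (-0.01 ± 0.14), with overlapping groups. Within the family, Pdk3 took 48.6 and 52.9 percent of expression per kb in WT and 61.5 and 61.0 percent in NHD13, and Pdk4 took 2.57 and 2.18 percent in WT and 0.715 and 0.985 percent in NHD13.

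Of the HIF subunits, Hif1a itself was not lower. It was at 55.1 and 57.4 CPM in WT and at 63.4 and 69.0 in NHD13, above WT in both libraries, with a log2 fold change of 0.24 ± 0.10 that edgeR did not call (adjusted p 0.221, and 0.216 to 0.540 over the alternatives). Its partner Arnt was at 77.0 and 78.0 CPM in WT and at 67.7 and 72.9 in NHD13 (-0.14 ± 0.09). Counts measure the transcript, and Hif1a is controlled largely through the stability of its protein, which was not measured here.

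Epas1, the second alpha subunit, was at 40.7 and 8.89 CPM in WT and at 1.72 and 3.98 in NHD13. Both NHD13 libraries were lower than both WT libraries, and WT library 1 was 4.57 times WT library 2. The log2 fold change was -3.11 ± 0.85 (edgeR adjusted p 0.105, and 0.000126 to 0.455 over the alternatives), -1.64 without WT library 1 and -3.84 without WT library 2. Of 6 stroma and endothelium markers, 2 stood apart in WT library 1: Sparc was at 35.6 CPM there and at 0.602 in WT library 2, 0.407 and 2.08 in NHD13, and Col1a1 was at 12.8 against 0.848, 0.757 and 2.08 CPM. The others did not: Cxcl12 was at 1.40 and 0.0821 CPM in WT and at 0.116 and 3.18 in NHD13, Lepr at 0.345 and 0.821 in WT and at 0 and 1.96 in NHD13, and Pecam1 at 67.5 and 78.4 in WT and at 81.1 and 97.8 in NHD13. The 6 together summed to 118 and 81.2 CPM in WT and to 82.4 and 107 CPM in NHD13; the endothelial marker Cdh5 was at 0.322 and 0.438 CPM in WT and at 0.0291 and 0.286 in NHD13. Their part in the Epas1 and Slc16a3 values was not tested.

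The prolyl hydroxylase genes went opposite ways without being called. Egln1 was at 7.54 and 7.53 CPM in WT and at 10.3 and 8.31 in NHD13 (log2 fold change 0.31 ± 0.22). Egln3, itself a strong HIF target, was at 14.7 and 8.13 CPM in WT and at 2.74 and 6.55 in NHD13 (-1.30 ± 0.53, edgeR adjusted p 0.201), lower in both NHD13 libraries. Neither group was tight: NHD13 library 2 had 2.39 times the Egln3 level of NHD13 library 1.

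Of 6 Hif1a targets outside glycolysis, 5 had a log2 fold change below 0, against 49.9 percent of all genes tested. EdgeR called 0 (against 4.28 percent of all genes), DESeq2 1 (17.5 percent) and limma-voom 0 (4.17 percent). These calls are near the background. By edgeR 2 had an unadjusted p under 0.05 (26.8 percent), both lower (13.9 percent). In 4 both NHD13 libraries lay below both WT libraries, against 30.3 percent of all genes, and in 2 the groups overlapped. Bnip3, a mitophagy receptor gene, was at 92.9 and 89.8 CPM in WT and at 59.6 and 69.3 in NHD13, without overlap, with a log2 fold change of -0.50 ± 0.11 (adjusted p 0.0759, and 0.00547 to 0.303 over the alternatives). Ddit4, an inhibitor of mTORC1 induced by stress, was at 13.0 and 15.6 CPM in WT and at 8.41 and 9.61 in NHD13 (-0.66 ± 0.20, adjusted p 0.125). P4ha1, a collagen prolyl hydroxylase gene, had -0.28 ± 0.12 and Ndrg1 had -0.17 ± 0.12, both lower in both NHD13 libraries. The groups overlapped for Vegfa, the vascular growth factor gene, at 3.70 and 2.11 CPM in WT and 1.60 and 2.12 in NHD13, and for Ankrd37, at 3.47 and 3.07 CPM in WT and 3.20 and 3.96 in NHD13.

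Enzymes and Hif1a targets were then set side by side. The median log2 fold change was -0.22 over the 17 glycolytic enzymes and -0.39 over the 6 targets, against 0.00 over all genes tested. Of the enzymes 11 were below 0 and of the targets 5, against 49.9 percent of all genes. EdgeR called 1 enzyme and 0 targets, against 4.28 percent. DESeq2 called 1 enzyme higher (8.2 percent of all genes) and 3 lower (9.33 percent), and limma-voom called 1 enzyme (4.17 percent). The enzyme median rested on WT library 1: it was -0.04 without that library, -0.32 without WT library 2 and -0.13 without NHD13 library 2. The target median was -0.27 without WT library 1 and -0.49 without NHD13 library 2. Relative to each gene's mean over the 4 libraries, on a log2(CPM + 0.5) scale, the enzyme median was 0.14 and -0.02 in WT and -0.02 and -0.11 in NHD13, so WT library 2 and NHD13 library 1 were level. The target median was 0.19 and 0.10 in WT and -0.30 and -0.11 in NHD13, without overlap. Many of the enzyme genes are known Hif1a targets too, so the 2 sets are not distinct in that respect.

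**Figure D4:**
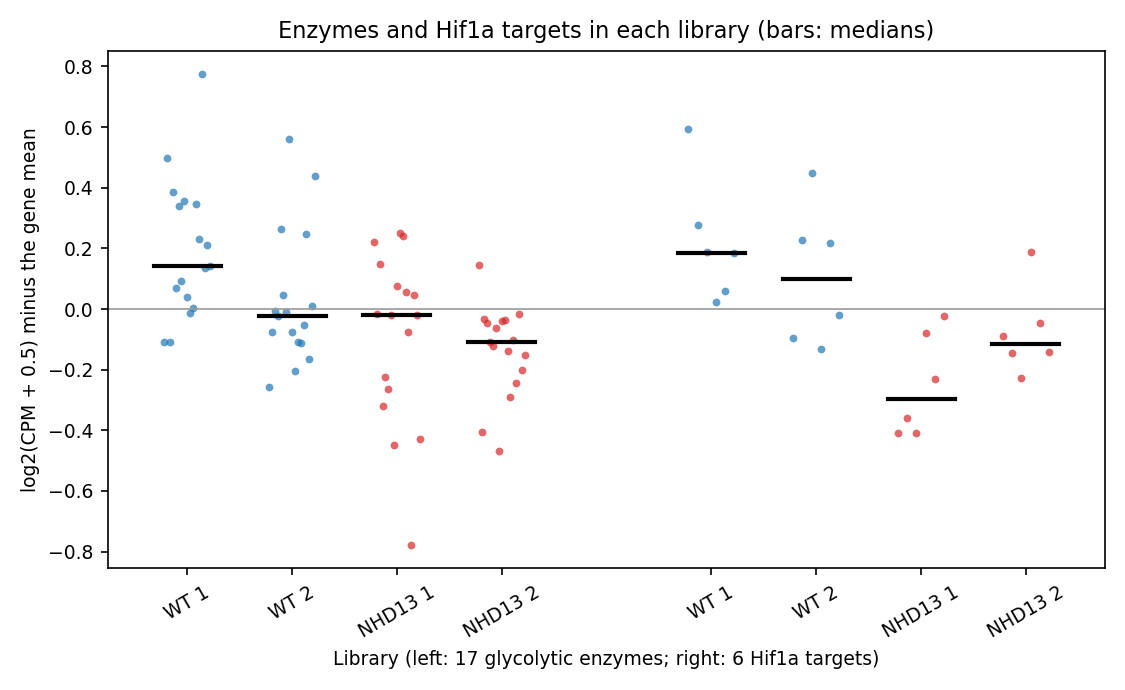
Difference of each gene from its own mean over the 4 libraries (log2(CPM + 0.5)), with 1 point per gene, WT in blue, NHD13 in red and a black bar at each median. The medians of the 17 enzymes run from 0.14 in WT library 1 to -0.11 in NHD13 library 2 with the middle libraries level, and those of the 6 targets lie above 0 in WT and below 0 in NHD13.

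Further genes of the same pathways were read from 5 lists. Of 101 tested genes in them edgeR called 2 (1.98 percent, against 4.28 percent of all genes), both among 42 other Hif1a target genes. Bhlhe40, a clock and stress repressor gene, fell by 1.80 ± 0.27 on the log2 scale, from 141 and 82.8 CPM in WT to 33.7 and 30.7 in NHD13 (adjusted p 0.0415, and 2.33e-09 to 0.191 over the alternatives). Gys1, the glycogen synthase gene of muscle and blood, rose by 0.79 ± 0.13, from 22.3 and 21.6 to 39.8 and 36.0 CPM (adjusted p 0.0465, and 0.000156 to 0.251). Neither call held when any single library was left out (adjusted p of 0.0837 to 0.191 for Bhlhe40 and 0.0560 to 0.251 for Gys1), and with library totals in place of TMM neither passed (0.0519 and 0.0511). The other 40 of these target genes were not called by edgeR, and the list median was -0.04. Of the 42, DESeq2 called 3 higher, against 8.2 percent of all genes, and 5 lower, against 9.33 percent. Limma-voom called 2, against 4.17 percent.

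Among 21 other genes of glycolysis and gluconeogenesis edgeR called 0 (against 4.28 percent of all genes), DESeq2 3 (17.5 percent) and limma-voom 0 (4.17 percent). By edgeR 9 had an unadjusted p under 0.05, 5 higher and 4 lower, against 26.8 percent of all genes. The gluconeogenic gene Fbp1 was at 9.61 and 6.79 CPM in WT and 2.79 and 3.04 in NHD13 (log2 fold change -1.49 ± 0.30, adjusted p 0.0637), and the gene listed as Pgm2 had -0.43 ± 0.09 (0.0641); its transcript NM_028132 belongs to the phosphoglucomutase gene that RefSeq now names Pgm1. Of 16 other regulators of HIF edgeR called 0 (against 4.28 percent of all genes), DESeq2 2 (17.5 percent) and limma-voom 0 (4.17 percent). By edgeR 3 had an unadjusted p under 0.05, against 26.8 percent. Vhl, which targets HIF alpha subunits for destruction, had -0.51 ± 0.14, and the coactivator gene Ep300 had 0.81 ± 0.16, each without overlap between groups. Of all genes tested, 30.3 percent were lower and 30.1 percent higher without overlap. Among 12 genes of pyruvate entry into mitochondria edgeR, DESeq2 and limma-voom called 0, against 4.28, 17.5 and 4.17 percent of all genes. None had an unadjusted p under 0.05 by edgeR, against 26.8 percent. Pdha1 had -0.22 ± 0.09 and Pdp1, which reverses the action of Pdk enzymes, -0.38 ± 0.16.

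The pentose phosphate pathway, which branches from glycolysis to make NADPH and ribose, had mostly positive values. Of its 10 tested genes 9 had a log2 fold change above 0, while 49.9 percent of all genes tested lay below 0. EdgeR called 0 (against 4.28 percent of all genes), DESeq2 1 (17.5 percent) and limma-voom 0 (4.17 percent). By edgeR 3 had an unadjusted p under 0.05, all higher, against 12.9 percent of all genes for higher ones. Taldo1, transaldolase, was at 168 and 181 CPM in WT and at 312 and 231 in NHD13 (0.63 ± 0.16, adjusted p 0.0977), and Tkt, transketolase, at 406 and 441 CPM in WT and at 562 and 498 in NHD13 (0.32 ± 0.10). Taldo1 was called without NHD13 library 2 (adjusted p 0.0388). NHD13 library 1, the higher library for both genes, also had the most granulocyte transcripts (3523 CPM over 7 markers), and their part in these values was not tested.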

How the data were processed

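Libraries (2 WT, 2 NHD13) were made from sorted stem cells by the SMARTer low-input method and read from both ends over 75 bases, per the labels' protocols. The submitters' processing notes name Bowtie 0.12.2 and build mm9. How transcripts were counted, and whether by strand, is not given in the sources used here; overlapping or near-identical genes (pseudogenes of Gapdh, Pgk1 or Ldha among them) may therefore share counts. The authors deposited raw counts for each RefSeq transcript.

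Of the 33018 transcripts, the one with the highest total was taken per symbol; 11 members had more than 1 transcript, whose totals were at least 86.4 percent of the highest. The test was edgeR 4.0.16 in R 4.3.3: default low-count filter, which all 38 members passed, TMM, robust quasi-likelihood test, Benjamini-Hochberg adjustment over 14853 genes. SE is the log2 fold change divided by the square root of F. Variation between libraries of a group (BCV) was 26.9 percent. The edgeR test was tested on simulated data. Members and lists were chosen with earlier results of these data known. All members were named, with library values by rule for called members, the 2 with the smallest p per role, Hif1a, the Pdk genes and the hexokinases; of related lists, called genes, or else the 2 with the smallest p. Library values of other members, named markers and the Pkm transcripts were picked after their values were seen. Alternatives were DESeq2 size factors, library totals, 2 other filters, DESeq2 1.42.0, limma-voom (limma 3.58.1), a non-robust fit, summed transcripts, a replicate block and each library left out.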

Additional observations from a re-analysis of the deposited data

How the results depend on the processing

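All genes called numbered 636. They were 1138 without a filter, 1066 with the 1 CPM filter, 2604 by DESeq2, 402 with summed transcripts, and 0 to 990 when a library was left out. Members called, 2 in the report, were 4 without a filter, 10 by DESeq2, 1 with summed transcripts, and 0 to 1 when a library was left out. Related genes called, also 2, were 0 with library totals or summed transcripts, 7 without a filter, 7 with the 1 CPM filter, 14 by DESeq2, and 0 to 4 when a library was left out. The cause was not tested, apart from the fewer samples of the fits without a library. In these, a group with 1 library is assumed to vary like the other.

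The median log2 fold change ran from -0.32 to -0.0436 for the enzymes and from -0.49 to -0.27 for the Hif1a targets when a library was left out. With Egln1, Egln3, Pdk1 and Slc2a1 added to the targets, a grouping chosen after seeing the data, it was -0.57. No scaling, filter or test turned the sign of a member. Leaving out a library did for Slc16a3 (-1.94 to 0.84), Tpi1 (-0.0210 to 0.10), Pgk1 (-0.0770 to 0.30), Pgam1 (-0.46 to 0.00183), Pkm (-0.12 to 0.17), Pfkfb4 (-0.0653 to 0.20), Pdk3 (-0.17 to 0.16) and Ankrd37 (-0.0244 to 0.29).

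The labels do not say whether same-numbered libraries were handled as pairs, and 1 correlation over 4 libraries cannot settle it. Deviations from the group mean of same-numbered libraries correlated at -0.206 over genes. With the replicate number as a block edgeR called 107 genes, 1 member (Slc2a3) and 0 related genes. With the numbers crossed, an alternative chosen after seeing the data, it called 647 genes, 3 members and 1 related gene.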
